A study of Mus musculus with 30 samples.

Results

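miR-22 and miR-320 are microRNAs studied in the stressed heart, and they were chosen here by name, with earlier results of these data known. They are 2 of the 1079 mouse miRNA names on the array, selected where the array name was exactly mmu-miR-22 or mmu-miR-320, and both are among the 306 mouse miRNAs whose signal passed the detection filter. The values are levels in heart sections holding both ventricles from female C57BL/6 mice, acquired at 5 to 6 weeks of age. Exposed mice received 1 intratracheal dose of 162 µg Printex 90, a carbon black of nanosized particles, as a 40 µl suspension followed by 150 µl of air. Vehicle mice received the carrier of that suspension, 0.9% NaCl with 10% acellular lavage fluid from C57BL/6 mice. Hearts were taken 1, 3 or 28 days later. Arrays with a signal came from 6 Printex 90 and 4 vehicle mice at day 1, from 4 Printex 90 and 6 vehicle mice at day 3, and from 5 Printex 90 and 4 vehicle mice at day 28. A further Printex 90 mouse of day 3 (replicate 3) had values only in the authors' deposited value table. Each mouse gave its own RNA and 1 array, so the spread below is between mice and includes that of the measurement. The series text states 6 mice per group; mice beyond the 30 samples held were not analysed here.

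A miRNA guides a silencing complex to messenger RNAs through its seed, the bases 2 to 8 from its 5′ end. miR-22 is abundant in cardiac and skeletal muscle, and in mice it is known for its part in cardiac hypertrophy and remodelling, with the deacetylases Sirt1 and Hdac4 among its described targets. miR-320 is known from mouse hearts under ischaemia and reperfusion, where the small heat shock protein Hsp20 (gene Hspb6) is a described target. Its hairpin is known to be made without Drosha, the enzyme that cuts most primary miRNA transcripts.

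The miR-22 sequences are shown because both arms of 1 hairpin were measured on these arrays. Under the older names the array uses, mmu-miR-22 is the 3′ arm and mmu-miR-22* the 5′ arm, which RefSeq calls mmu-miR-22-3p and mmu-miR-22-5p. All coordinates are RefSeq's on the plus strand of GRCm38.p6: the hairpin at chr11:75463716-75463810, the 5′ arm at chr11:75463734-75463755 and the 3′ arm at chr11:75463772-75463793. Capitals mark both mature arms in the hairpin and the seed in each arm.
Mir22 hairpin: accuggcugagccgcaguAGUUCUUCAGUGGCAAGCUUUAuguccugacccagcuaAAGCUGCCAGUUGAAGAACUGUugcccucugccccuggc
mmu-miR-22-3p: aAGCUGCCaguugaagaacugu
mmu-miR-22-5p: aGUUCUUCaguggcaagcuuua
Both arms are 22 bases long and their seeds differ. Each seed was carried by 1 of the 1679 mature mouse miRNAs in the RefSeq table, the arm itself. In RefSeq's GRCm38.p6 annotation Mir22 lies inside the long noncoding RNA gene Mir22hg on chromosome 11, between Wdr81 and Tlcd2. Mir320 lies on chromosome 14 between Polr3d and Phyhip.

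The arrays were 1-colour Agilent miRNA arrays, and the share of spots well above background was between 18.4% and 27.5% per array. Its group means were 23.6% in Printex 90 and 25.7% in vehicle mice on day 1, 24.2% in Printex 90 and 23.5% in vehicle mice on day 3, and 24.7% in Printex 90 and 24.5% in vehicle mice on day 28. Across the 29 arrays this share correlated with miR-22 at r = 0.11 and with miR-320 at r = -0.14 (Spearman's rho 0.00 and -0.33). With this share as a covariate in the fit, the exposure difference for the mean of the days was -0.03 for miR-22 and -0.06 for miR-320 on the log2 scale, and neither was called. The label of heart tissue was checked on marker miRNAs: all 5 listed for cardiac muscle (miR-1a, miR-133a, miR-133b, miR-208a-3p and miR-499) were detected on all 29 arrays. Whether these 5 are limited to cardiac muscle, and not shared with skeletal muscle, was not tested. The 2 red cell, 3 leukocyte, 1 endothelial, 2 smooth muscle and 2 fibroblast markers were detected on all arrays too, and the 2 brain and 5 epithelial markers on none. The skeletal muscle marker miR-206 was detected on 17 of 29 arrays and the liver marker miR-122 on 26 of 29, where its scaled log2 signal reached 7.98; their part in the results was not tested. In such tissue, fewer cells of a type and less of a miRNA per cell cannot be told apart.

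miR-22 was measured far above background on every array. Its probes A_54_P1309 and A_54_P1310, with 20 spots each, gave processed signals of 4514 to 10831 and 7696 to 18199 arbitrary units before scaling. Every spot used was well above background on all 29 arrays. The difference between the probes stayed near 0.77 on the log2 scale (SD 0.052 over arrays), and they correlated at r = 0.87.

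The other arm of the hairpin, miR-22*, was also detected on all 29 arrays by both of its probes. Their processed signals were 128 to 324 and 192 to 486 units. Signals of different probes were not used to rank the amounts of the arms, since each probe binds with its own strength.

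miR-320 was close to the detection limit. Its brighter probe A_54_P2634 gave processed signals of 28.6 to 64.8 units and was detected on 28 of 29 arrays, where detection means that 0.5 or more of the spots exceeded background clearly. The exception was the Printex 90 mouse of day 1 replicate 5, with 38.9% of its spots above background. The dimmer probe A_54_P2633 was detected on 7 of 29 arrays: 1 of 6 Printex 90 and 0 of 4 vehicle mice at day 1, 0 of 4 Printex 90 and 3 of 6 vehicle mice at day 3, and 1 of 5 Printex 90 and 2 of 4 vehicle mice at day 28. It did not pass the filter, so the scaled miR-320 levels below rest on 1 probe. This does not hold for the fit without a detection filter, the scanner's total gene signal or the authors' deposited table. The 3 probes for the other arm, miR-320*, were detected on 0 of 29 arrays.

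**Figure D1:**
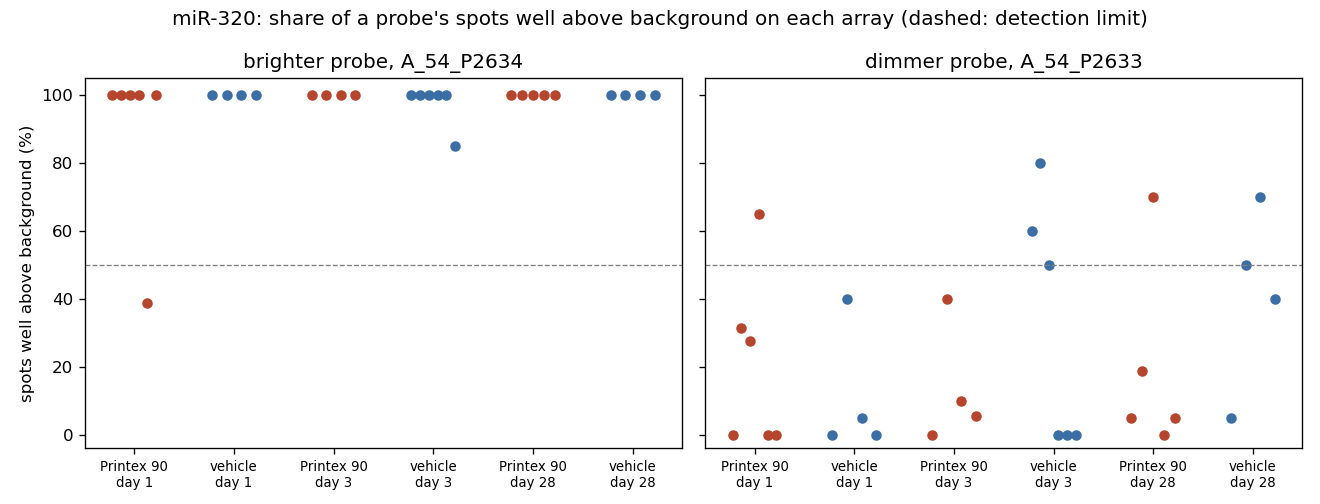
Share of spots well above background (%, y axis) for the brighter (left) and dimmer (right) miR-320 probe, 1 point per array, by treatment and day. The dashed line marks the share needed for detection: the brighter probe lies on or above it on 28 of 29 arrays and the dimmer one on 7.

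Levels are given as log2 of the processed signal after scaling all arrays to the same 75th percentile, taken over the 413 probes that every array detected. The shared value was the geometric mean of that percentile over the arrays. On day 1 miR-22 ran from 13.19 to 13.42 in the 6 Printex 90 mice (median 13.31), against 13.47, 13.28, 13.27 and 13.30 in the 4 vehicle mice. On day 3 it was 13.26, 13.27, 13.37 and 13.37 in the Printex 90 mice, against 13.26 to 13.36 in the 6 vehicle mice (median 13.32). On day 28 it was 13.53, 13.33, 13.41, 13.26 and 13.54 in the Printex 90 mice, against 13.49, 13.49, 13.45 and 13.51 in the vehicle mice. The treatments overlapped on every day, and the exposed mice of day 28 lay on both sides of their narrow vehicle group.

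miR-320, measured by 1 usable probe, varied more than miR-22 on this scale. On day 1 it ran from 5.32 to 5.70 in the 6 Printex 90 mice (median 5.54), against 5.64, 5.47, 5.47 and 5.50 in the vehicle mice. On day 3 it was 5.44, 5.64, 5.58 and 5.42 in the Printex 90 mice, against 5.52 to 5.76 in the 6 vehicle mice (median 5.66). On day 28 it was 5.77, 5.99, 5.72, 5.33 and 5.63 in the Printex 90 mice, against 5.68, 5.69, 5.79 and 5.80 in the vehicle mice. The groups overlapped here as well, with the highest and the second lowest of all 29 values in the exposed mice of day 28.

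**Figure D2:**
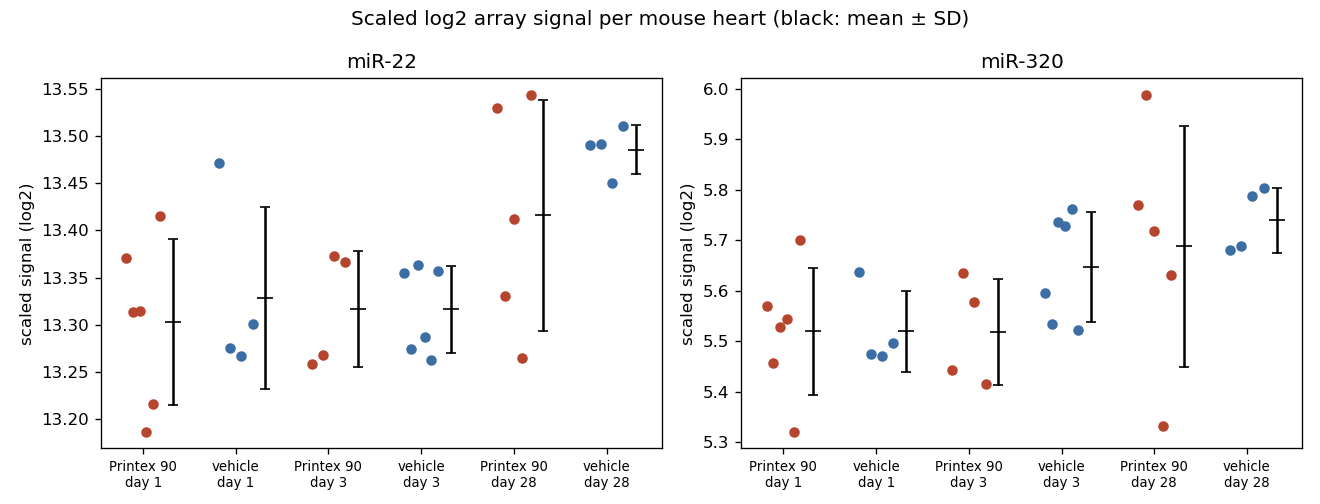
Scaled log2 signal (y axis) of miR-22 (left) and miR-320 (right), 1 point per mouse heart, by treatment and day, with black marks for the group mean ± SD. The axes do not start at 0: all 29 miR-22 values lie between 13.19 and 13.54, and all miR-320 values between 5.32 and 5.99.

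The miR-22 exposure difference was smaller than the larger SD between mice of its 2 groups on every day. It averaged 13.30 ± 0.088 in Printex 90 and 13.33 ± 0.096 in vehicle mice on day 1 (SD, n = 6 and 4), a log2 difference of -0.03 ± 0.06 (SE). On day 3 both treatments averaged 13.32, with SDs of 0.061 in Printex 90 and 0.046 in vehicle mice (n = 4 and 6) and a difference of 0.00 ± 0.06. On day 28 the means were 13.42 ± 0.12 in Printex 90 and 13.49 ± 0.025 in vehicle mice (SD, n = 5 and 4), a difference of -0.07 ± 0.06. As a ratio of Printex 90 over vehicle signal, these differences came to 0.982 (95% interval 0.899 to 1.07) on day 1, 1.00 (0.915 to 1.09) on day 3 and 0.953 (0.869 to 1.04) on day 28. The mean of the days gave 0.978 (0.929 to 1.03).

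The miR-320 exposure difference was smaller than the larger group SD on days 1 and 28, but larger than both SDs on day 3; its 95% interval included 0 on each day. It averaged 5.52 ± 0.13 in Printex 90 and 5.52 ± 0.080 in vehicle mice on day 1 (SD, n = 6 and 4), a log2 difference of 0.00 ± 0.09 (SE). On day 3 it averaged 5.52 ± 0.11 in Printex 90 and 5.65 ± 0.11 in vehicle mice (SD, n = 4 and 6), a difference of -0.13 ± 0.09, with 0 of 4 exposed mice above the vehicle mean. On day 28 it averaged 5.69 ± 0.24 in Printex 90 and 5.74 ± 0.064 in vehicle mice (SD, n = 5 and 4), a difference of -0.05 ± 0.10. The ratios of Printex 90 over vehicle signal were 1.00 (95% interval 0.877 to 1.14), 0.915 (0.802 to 1.04) and 0.965 (0.841 to 1.11) on days 1, 3 and 28, and 0.959 (0.888 to 1.04) for the mean of the days. Without the day 1 Printex 90 mouse whose probe was not detected, the day 1 difference was 0.04.

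limma's moderated test, with Benjamini-Hochberg adjustment over the 306 miRNAs at a threshold of 0.05, called neither miRNA in any exposure comparison. It called 0% of all 306 there. At an unadjusted p under 0.05 it listed 2, 1, 1 and 0 of the 306 on days 1, 3 and 28 and for the mean of the days. Because the pair was chosen with results of these data known, no p is given for its own differences. Within single slides, each of which held several groups, the miR-22 exposure difference was between -0.10 and 0.04 on day 1 (4 slides), -0.05 and 0.09 on day 3 (3 slides) and -0.10 and 0.04 on day 28 (3 slides). That of miR-320 was between -0.07 and 0.07 for day 1, between -0.23 and -0.03 for day 3, and between -0.17 and 0.12 for day 28. The day 3 value of miR-320 was thus below 0 on all 3 slides, with 1 or 2 mice of each treatment per slide. How many of the 306 miRNAs kept 1 sign over these slides was not counted. The signs moved with the scaling. With all probes as the scaling base the day 1 difference was 0.13 for miR-22 and 0.16 for miR-320, and with no scaling it was -0.21 and -0.18. The day 28 difference was -0.23 and -0.21 with all probes, and the day 3 difference of miR-320 was 0.07 with the scanner's total gene signal.

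The change of the exposure difference between days was likewise uncalled, at 0% of all 306. For miR-22 it was 0.03 ± 0.09 for day 3 minus day 1, -0.04 ± 0.09 for day 28 minus day 1 and -0.07 ± 0.09 for day 28 minus day 3 (log2 ± SE). For miR-320 the same were -0.13 ± 0.13, -0.05 ± 0.13 and 0.08 ± 0.13. The other arm, miR-22*, had exposure differences of -0.10 ± 0.08, 0.03 ± 0.08 and -0.06 ± 0.08 on days 1, 3 and 28, none called.

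The larger differences of the pair were between days. All groups were acquired at the same age, so mice of day 28 were older when their hearts were taken. Age and time after the dose cannot be told apart in these comparisons. In vehicle mice miR-22 averaged 13.49 ± 0.025 on day 28, against 13.33 ± 0.096 on day 1 (SD, n = 4 each), a difference of 0.16 ± 0.07 (log2 ± SE), and the groups overlapped through 1 mouse, vehicle day 1 replicate 1. Against day 3 (13.32 ± 0.046, n = 6), the day 28 level was 0.17 ± 0.06 higher, and these groups did not overlap, a pattern with the later day higher that 2 of the 306 miRNAs (0.654%) showed in that comparison. In vehicle mice miR-320 averaged 5.74 ± 0.064 on day 28, against 5.52 ± 0.080 on day 1 (SD, n = 4 each), a difference of 0.22 ± 0.10. Those groups did not overlap, as held with the later day higher for 9 of 306 miRNAs (2.94%). Its difference from day 3 was 0.09 ± 0.09. In the authors' deposited table both of these separations were lost. Vehicle miR-22 was 13.33 to 13.51 there on day 28, against 13.24 to 13.61 on day 3. Vehicle miR-320 was 6.43 to 6.67 there on day 28, against 6.29 to 6.45 on day 1.

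Neither miRNA was called in these comparisons. limma called 1.96% of the 306 for day 28 minus day 1 and 0.654% for day 28 minus day 3 in vehicle mice. The median difference of all 306 was -0.06 in the first and 0.10 in the second, beside which the miR-22 difference from day 3 was 0.17. Within 3 slides, day 28 minus day 1 in vehicle mice was from 0.02 to 0.21 for miR-22 and from 0.04 to 0.31 for miR-320. Each slide held 1 or 2 mice of day 28 against 1 of day 1. These are the same mice as above, so the slide values are no separate support. For miR-320 their sign was fixed, since the groups did not overlap.

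In Printex 90 mice the differences had the same sign and the groups overlapped; groups apart with the later day higher were found for 0.98% of all 306 in day 28 minus day 1 and 2.29% in day 28 minus day 3. Day 28 minus day 1 was 0.11 ± 0.06 for miR-22 and 0.17 ± 0.09 for miR-320 (log2 ± SE; n = 5 and 6), and limma called neither, against 1.31% of all 306. Day 28 minus day 3 was 0.10 ± 0.06 and 0.17 ± 0.10, with 0.327% of all called. The median of all 306 was 0.11 and 0.10 in those comparisons. Day 3 minus day 1 was 0.01 ± 0.06 for miR-22 and 0.00 ± 0.09 for miR-320 in Printex 90 mice, with 0% called. In vehicle mice it was -0.01 ± 0.06 and 0.13 ± 0.09, with 0% called.

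**Figure D3:**
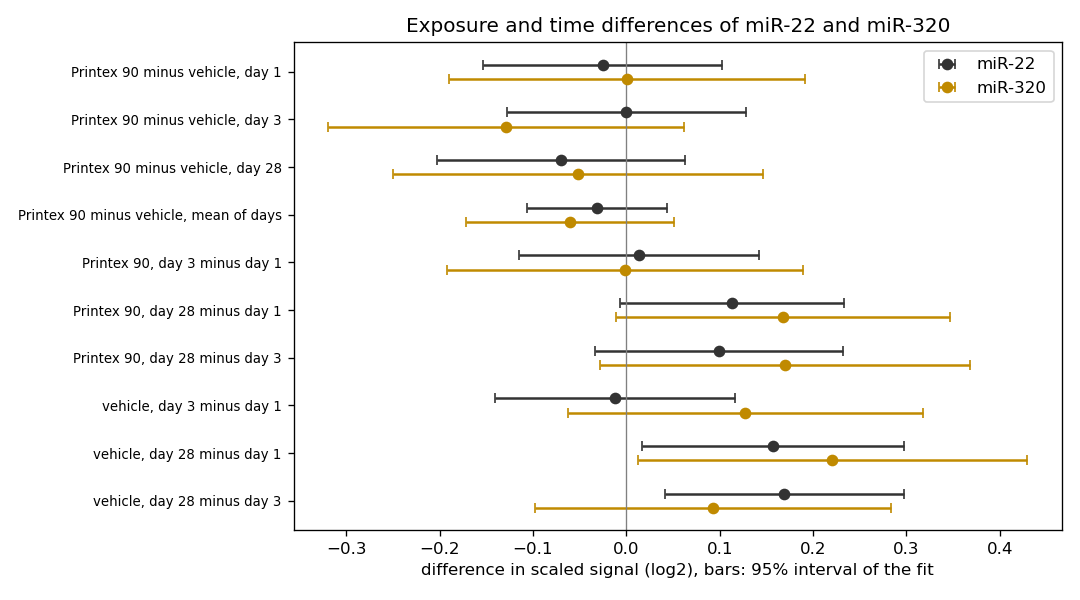
Log2 differences of miR-22 (dark) and miR-320 (yellow) in the exposure and day comparisons, with 95% intervals of the fit. The 4 exposure intervals of each miRNA include 0, and of the day comparisons 3 intervals in vehicle mice lie above it, which belong to miR-22 on day 28 against both earlier days and to miR-320 on day 28 against day 1. The intervals are not adjusted for the number of comparisons, and none of these 3 differences was called.

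These day differences depended on how arrays were brought to 1 scale and on which version of the values was used. For miR-22, day 28 minus day 1 in vehicle mice was 0.32 when scaled on all probes, 0.07 with quantile normalization, -0.01 with no scaling and 0.15 in the authors' deposited table. For miR-320 the same comparison was 0.38, 0.36, 0.06 and 0.15. In the deposited table miR-320 lay at 6.24 to 6.69, near miR-320* at 5.69 to 5.87, which was detected on no array. Differences of miR-320 there may thus not be on a like log2 scale. Day 28 minus day 3 in vehicle mice was 0.04 for miR-22 with all probes and -0.06 for miR-320 with quantile normalization. In Printex 90 mice, day 28 minus day 1 of miR-22 became -0.05 with all probes, 0.02 with quantile normalization and -0.01 in the deposited table, and that of miR-320 became 0.01, -0.03 and -0.01. The sign of the difference in Printex 90 mice thus flipped for both miRNAs under some scalings.

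**Figure D4:**
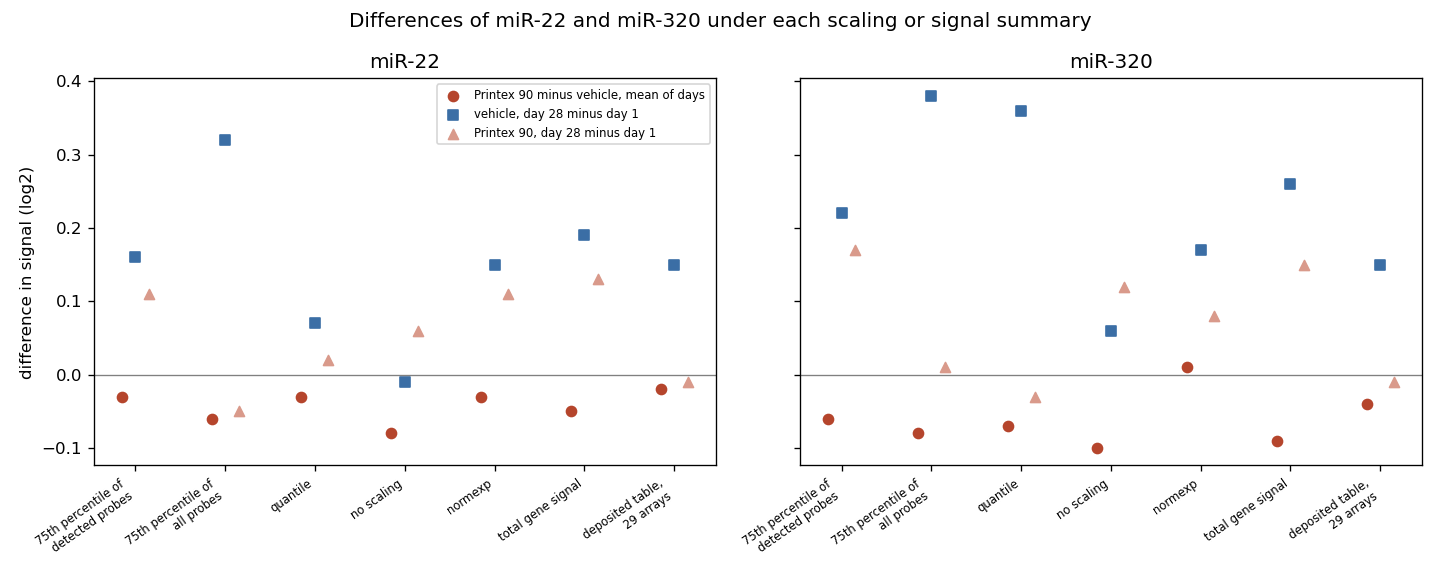
Log2 differences (y axis) of miR-22 (left) and miR-320 (right) under each way of scaling or summarising the signal, for the exposure difference as the mean of days (circles), day 28 minus day 1 in vehicle mice (squares) and in Printex 90 mice (triangles). The exposure values stay between -0.10 and 0.01, while the squares run from -0.01 to 0.38.

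Ordered by group mean, neighbouring groups rarely differed beyond their spread. For miR-22 the order from the top was day 28 vehicle, day 28 Printex 90, day 1 vehicle, day 3 vehicle, day 3 Printex 90 and day 1 Printex 90. None of its 5 steps (0 of 5) was larger than the larger SD of the 2 groups, the largest being 0.087. For miR-320 the order was day 28 vehicle, day 28 Printex 90, day 3 vehicle, day 1 Printex 90, day 1 vehicle and day 3 Printex 90. Here 1 of 5 steps passed that mark, from day 3 vehicle to day 1 Printex 90, at 0.127 against an SD of 0.126.

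On the scaled scanner levels, miR-22 was among the miRNAs with the smallest spread. Its residual SD between mice of a group was 0.081 on the log2 scale, and 3 of the 306 miRNAs had a smaller one. Spread was not compared among miRNAs of like brightness, and miR-22 was far above background on every array. The residual SD of miR-22* was 0.113 (32 smaller) and that of miR-320 was 0.137 (61 smaller), against a median of 0.272 over all. Over all groups together, the scanner levels spanned 0.36 for miR-22 and 0.67 for miR-320. The authors' deposited values spanned 0.48 for miR-22 and 0.45 for miR-320 over 30 samples. There miR-320 (6.24 to 6.69) lay near miR-320* (5.69 to 5.87), which was detected on no array. The spans of the deposited values therefore do not rank the steadiness of the pair.

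Over the 29 arrays miR-22 and miR-320 correlated at r = 0.51 (Spearman's rho 0.55), and at 0.32 (rho 0.24) once group means were removed. Without the 2 arrays farthest from the median the pooled r was 0.57. The arms miR-22 and miR-22* correlated at 0.71 (rho 0.73), and at 0.65 (rho 0.70) with group means removed. These are descriptions, and the points share arrays, scaling and slides.

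Among miRNAs detected on all arrays, the most like miR-22 by Pearson's r over the 29 arrays were miR-345-5p (0.76), miR-22* (0.71), miR-29c (0.70), miR-34a (0.67) and miR-499 (0.67), of 209 candidates with a median r of 0.22. The most like miR-320 were miR-1895 (0.66), miR-29b (0.65), miR-202-3p (0.62), miR-1904 (0.62) and miR-3963 (0.60), of 210 candidates with a median of 0.05. With group means removed, the r of miR-29c with miR-22 was 0.43 and that of miR-29b with miR-320 was 0.43, while the r of the other 4 miRNAs named for miR-22 was 0.59 to 0.69 and that of the other 4 named for miR-320 was 0.50 to 0.53. In the order named, their ranks among the candidates then were 1, 2, 24, 3 and 6 for miR-22. For miR-320 they were 7, 16, 3, 6 and 8. In the authors' deposited table the r with miR-22 was 0.38 for miR-345-5p, 0.47 for miR-22*, 0.52 for miR-29c, 0.71 for miR-34a and 0.57 for miR-499. The r with miR-320 there was 0.82 for miR-1895, 0.60 for miR-29b, 0.77 for miR-202-3p, 0.75 for miR-1904 and 0.18 for miR-3963. In the same order, the ranks there were 80, 42, 31, 3 and 17 of 209 for miR-22. For miR-320 the ranks were 3, 48, 8, 11 and 144 of 210. Which miRNAs were closest thus depended on the version of the values.

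The authors' deposited table, which gives log2 intensities and whose values rank miRNAs almost as the pixel signal without background subtraction does, also held the Printex 90 mouse of day 3 without scanner signal. In it, that mouse had 13.36 for miR-22 and 6.46 for miR-320, inside its group's ranges of 13.15 to 13.40 and 6.36 to 6.59. Across the 29 shared arrays, the scanner levels correlated with the deposited ones at r = 0.37 for miR-22 and 0.61 for miR-320. The 2 versions therefore order the mice differently within the narrow range of each miRNA.

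Other miRNAs known from hypertrophied or failing hearts were also not called for exposure. Of a list of 28, 27 were tested, and 0 of 27 were called on any day or as the mean of the days, beside 0% of all 306. On days 1, 3 and 28, 11, 11 and 5 of the 27 were higher in Printex 90 mice, with a median log2 difference of -0.01, -0.02 and -0.04, against -0.07, 0.03 and 0.02 over all 306. For the mean of the days 6 were higher, with a median of -0.04 against 0.00 over all. The highest values were 0.07 ± 0.09 for miR-208b, encoded in the slow myosin gene Myh7, and 0.04 ± 0.07 for miR-21, a miRNA raised in many stressed tissues (log2 ± SE). The lowest were -0.12 ± 0.07 for miR-208a-3p, encoded in the cardiac myosin gene Myh6, and -0.11 ± 0.10 for miR-132.

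Members of the list did change between days. For day 28 minus day 1 in vehicle mice limma called 4 of 27, which were miR-208b (lower) and miR-29a, miR-29b and miR-29c (higher), beside 1.96% of all 306. For day 28 minus day 3 it called miR-208b (lower) and miR-29b (higher), beside 0.654% of all. In Printex 90 mice it called miR-208b (lower), miR-29b and miR-29c (higher) for day 28 minus day 1, beside 1.31% of all. For day 28 minus day 3 it called miR-208b (lower), beside 0.327% of all. The miR-29 family is known to target collagen transcripts, and these names were chosen after their values were seen.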

How the data were processed

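Heart RNA was hybridised to 1-colour Agilent arrays with 2889 probes on 45440 spots. Per the file headers, the authors quantified scans with Feature Extraction 10.7.3.1. Their deposited files give each spot a linear signal intensity after background subtraction. The authors' deposited value table gives log2 values per miRNA for 30 samples (column medians 5.78 to 5.82); how its columns were scaled and centred is not given in the sources used here. It served as an alternative.

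Control and outlying spots were dropped, the remaining spots of each probe averaged, and the signal scaled as the report says. Values below 16.2 (4.02 in log2, 1.76% of values) were raised to it. Probes detected on 4 or more arrays of some group (620 probes) were averaged per miRNA. Unscaled, that percentile differed 2.37-fold between the brightest and dimmest array, and 0 spots were saturated. The number of arrays limits the precision. limma 3.58.1 (R 4.3.3) fitted 6 group means to 29 arrays, with 13 two-sided contrasts. The normexp alternative used median pixel signals, with an offset of 50.

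The members and lists were chosen with earlier results of these data known. Named were the pair, the other arms, shared seeds, the 5 most alike miRNAs, and the 2 highest and 2 lowest of the list.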

Additional observations from a re-analysis of the deposited data

Results flagged for a closer look

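In the vehicle group of day 1, replicate 1 stood apart for both miRNAs in the scaled scanner levels. Its miR-22 level of 13.47 was the highest of the 4 mice, and the gap to the next was 0.835 of the group's range. Its miR-320 level of 5.64 was the highest too, with a gap of 0.845 of the range. Of 12 member groups examined, 2 were marked in this way, both in the same mouse, and chance marks about 1 in 20 such groups. Without this mouse, day 28 minus day 1 in vehicle mice was 0.20 for miR-22 and 0.26 for miR-320, and Printex 90 minus vehicle on day 1 was 0.02 for miR-22 and 0.04 for miR-320. The authors' deposited table did not show the mouse apart in this way. There its miR-22 value of 13.16 was the lowest of the group, whose highest was 13.35. Its miR-320 value there was 6.42, below the group's highest of 6.45.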

How the results depend on the processing

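limma called neither miR-22 nor miR-320 in any of the 562 comparisons fitted, in which the fits changed the scaling, the background, the probe summary, the filter, the slide term, the groups fitted or the arrays, or added the share of spots above background as a covariate. Of 1121 recomputed differences of the pair, 86 moved by more than 1 SD between mice, and none of these came from leaving 1 array out. The total is no measure of stability, since each difference had 29 values with 1 array left out and 12 to 16 from other settings. A difference between 2 groups cannot change when the array left out belongs to neither. With each of the 29 arrays left out in turn, the number of miRNAs called was 3 to 7 for day 28 minus day 1 in vehicle mice (6 with all arrays), 1 to 4 for day 28 minus day 3 in vehicle mice (2, moved by over 1.5 times in 22 of 29 cases), 1 to 4 for day 28 minus day 1 in Printex 90 mice (4, moved in 11 of 29 cases) and 1 to 2 for day 28 minus day 3 in Printex 90 mice (1), and 0 in the other comparisons. No paired analysis was possible because the labels carry no replicate numbers that pair mice of different groups, and the replicate numbers used here only name mice in accession order. With detection required on every array, miR-320 had no value. Scaling moved the median difference of all 306 miRNAs too: for day 28 minus day 1 in vehicle mice it was -0.06 as reported, 0.10 with all probes, 0.02 with quantile normalization and -0.21 with no scaling. The miR-320 signal lay near background and, with the filter as reported, rests on 1 probe. The values that moved by more than 1 SD, or by over 1.5 times for counts, follow as log2 differences or numbers called, and the cause was not tested.

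With arrays scaled on the 75th percentile of all probes, miR-22 was 0.13 for exposure on day 1, -0.23 for exposure on day 28, -0.20 for change of the exposure difference, day 3 minus day 1, -0.37 for change of the exposure difference, day 28 minus day 1, -0.16 for change of the exposure difference, day 28 minus day 3, 0.28 for day 3 minus day 1 in vehicle mice, 0.32 for day 28 minus day 1 in vehicle mice, 0.04 for day 28 minus day 3 in vehicle mice, -0.05 for day 28 minus day 1 in Printex 90 mice and -0.12 for day 28 minus day 3 in Printex 90 mice. With arrays scaled on the 75th percentile of all probes, miR-320 was 0.16 for exposure on day 1, -0.21 for exposure on day 28, -0.36 for change of the exposure difference, day 3 minus day 1, -0.37 for change of the exposure difference, day 28 minus day 1, 0.42 for day 3 minus day 1 in vehicle mice, 0.38 for day 28 minus day 1 in vehicle mice, 0.01 for day 28 minus day 1 in Printex 90 mice and -0.05 for day 28 minus day 3 in Printex 90 mice. With arrays scaled on the 75th percentile of all probes, the number called was 1 for day 28 minus day 1 in vehicle mice, 1 for day 28 minus day 3 in vehicle mice and 1 for day 28 minus day 1 in Printex 90 mice. With quantile normalization, miR-22 was 0.07 for day 28 minus day 1 in vehicle mice, 0.02 for day 28 minus day 1 in Printex 90 mice and 0.02 for day 28 minus day 3 in Printex 90 mice. With quantile normalization, miR-320 was 0.20 for exposure on day 1, -0.19 for exposure on day 28, -0.43 for change of the exposure difference, day 3 minus day 1, -0.39 for change of the exposure difference, day 28 minus day 1, 0.42 for day 3 minus day 1 in vehicle mice, 0.36 for day 28 minus day 1 in vehicle mice, -0.06 for day 28 minus day 3 in vehicle mice, -0.03 for day 28 minus day 1 in Printex 90 mice and -0.03 for day 28 minus day 3 in Printex 90 mice. With quantile normalization, the number called was 3 for day 28 minus day 1 in vehicle mice, 1 for day 28 minus day 3 in vehicle mice and 1 for day 28 minus day 1 in Printex 90 mice. With no scaling, miR-22 was -0.21 for exposure on day 1, 0.13 for exposure on day 3, 0.34 for change of the exposure difference, day 3 minus day 1, 0.07 for change of the exposure difference, day 28 minus day 1, -0.27 for change of the exposure difference, day 28 minus day 3, -0.24 for day 3 minus day 1 in vehicle mice, -0.01 for day 28 minus day 1 in vehicle mice, 0.10 for day 3 minus day 1 in Printex 90 mice and -0.04 for day 28 minus day 3 in Printex 90 mice. With no scaling, miR-320 was -0.18 for exposure on day 1, 0.18 for change of the exposure difference, day 3 minus day 1, -0.12 for change of the exposure difference, day 28 minus day 3, -0.10 for day 3 minus day 1 in vehicle mice and 0.06 for day 28 minus day 1 in vehicle mice. With no scaling, the number called was 0 for day 28 minus day 1 in vehicle mice, 0 for day 28 minus day 3 in vehicle mice, 0 for day 28 minus day 1 in Printex 90 mice and 0 for day 28 minus day 3 in Printex 90 mice. With normexp background correction, the number called was 3 for day 28 minus day 1 in vehicle mice, 0 for day 28 minus day 3 in vehicle mice, 0 for day 28 minus day 1 in Printex 90 mice and 0 for day 28 minus day 3 in Printex 90 mice. With the scanner's total gene signal, miR-320 was 0.07 for exposure on day 3, -0.22 for exposure on day 28, 0.18 for change of the exposure difference, day 3 minus day 1, -0.29 for change of the exposure difference, day 28 minus day 3, -0.04 for day 3 minus day 1 in vehicle mice, 0.30 for day 28 minus day 3 in vehicle mice, 0.15 for day 3 minus day 1 in Printex 90 mice and 0.01 for day 28 minus day 3 in Printex 90 mice. With the scanner's total gene signal, the number called was 1 for day 28 minus day 3 in vehicle mice. With only the brightest probe per miRNA, the number called was 1 for day 28 minus day 3 in vehicle mice and 2 for day 28 minus day 1 in Printex 90 mice. In the deposited table over the same 29 arrays, miR-22 was 0.09 for exposure on day 1, -0.16 for change of the exposure difference, day 3 minus day 1, -0.16 for change of the exposure difference, day 28 minus day 1, 0.12 for day 3 minus day 1 in vehicle mice, 0.03 for day 28 minus day 3 in vehicle mice and -0.01 for day 28 minus day 1 in Printex 90 mice. In the deposited table over the same 29 arrays, miR-320 was -0.01 for day 28 minus day 1 in Printex 90 mice and 0.00 for day 28 minus day 3 in Printex 90 mice. In the deposited table over the same 29 arrays, the number called was 2 for day 28 minus day 1 in vehicle mice, 1 for day 28 minus day 3 in vehicle mice and 1 for day 28 minus day 1 in Printex 90 mice. In the deposited table over all 30 samples, miR-22 was 0.09 for exposure on day 1, -0.14 for change of the exposure difference, day 3 minus day 1, -0.16 for change of the exposure difference, day 28 minus day 1, 0.12 for day 3 minus day 1 in vehicle mice, 0.03 for day 28 minus day 3 in vehicle mice, -0.01 for day 28 minus day 1 in Printex 90 mice and 0.02 for day 28 minus day 3 in Printex 90 mice. In the deposited table over all 30 samples, miR-320 was -0.01 for day 28 minus day 1 in Printex 90 mice and -0.01 for day 28 minus day 3 in Printex 90 mice. In the deposited table over all 30 samples, the number called was 2 for day 28 minus day 1 in vehicle mice, 1 for day 28 minus day 3 in vehicle mice and 1 for day 28 minus day 1 in Printex 90 mice. With no detection filter, the number called was 4 for day 28 minus day 3 in vehicle mice and 2 for day 28 minus day 3 in Printex 90 mice. With detection required on every array, the number called was 1 for day 28 minus day 3 in vehicle mice and 0 for day 28 minus day 3 in Printex 90 mice. With slide as a fixed block, the number called was 4 for day 28 minus day 3 in vehicle mice and 2 for day 28 minus day 3 in Printex 90 mice. With slide as a random block, the number called was 4 for day 28 minus day 3 in vehicle mice. Within slides, the lowest value for miR-22 was -0.16 for day 3 minus day 1 in vehicle mice, 0.02 for day 28 minus day 1 in vehicle mice, -0.11 for day 3 minus day 1 in Printex 90 mice, 0.01 for day 28 minus day 1 in Printex 90 mice and -0.11 for day 28 minus day 3 in Printex 90 mice. Within slides, the lowest value for miR-320 was -0.07 for day 3 minus day 1 in vehicle mice, 0.04 for day 28 minus day 1 in vehicle mice, -0.20 for day 28 minus day 1 in Printex 90 mice and -0.25 for day 28 minus day 3 in Printex 90 mice. Within slides, the highest value for miR-22 was 0.09 for exposure on day 3, 0.04 for exposure on day 28, 0.09 for day 3 minus day 1 in vehicle mice, 0.12 for day 3 minus day 1 in Printex 90 mice, 0.23 for day 28 minus day 1 in Printex 90 mice and 0.27 for day 28 minus day 3 in Printex 90 mice. Within slides, the highest value for miR-320 was 0.12 for exposure on day 28 and 0.40 for day 28 minus day 1 in Printex 90 mice.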
